A study of Rattus norvegicus with 6 samples.

Results

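The genes described are the enzymes that build and desaturate fatty acids, together with their regulator Srebf1, in renal cortex of 6 male Sprague-Dawley rats hybridised to 1-colour Agilent microarrays. The list held 10 genes: Acly, Acaca, Acacb, Fasn, Me1, Elovl6, Scd, Fads1, Fads2 and Srebf1. Their probes were those whose accession in the scanner files mapped to these symbols, 18 of the 61537 non-control probes. They covered 9 of the 10 genes, and no probe accession mapped to Srebf1. The tricresyl phosphate group was 3 animals given 200 mg/kg/day of this organophosphate plasticiser and flame retardant for 4 weeks, and the corn oil group was 3 animals given corn oil for 4 weeks. All rats were bought at the age of 5 weeks and kept on a basal diet, and the labels do not say what carried the tricresyl phosphate. Every rat had an array of its own, so replicates are separate animals. In bulk cortex, fewer cells of a type and less RNA per cell cannot be told apart.

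The cytosolic route to fatty acids starts from citrate that leaves the mitochondrion. Acly splits it to acetyl-CoA, acetyl-CoA carboxylase turns acetyl-CoA into malonyl-CoA, and Fasn builds palmitate from the pair with NADPH, part of which Me1 supplies. Palmitate is lengthened by Elovl6 and desaturated by Scd, whereas Fads1 and Fads2 desaturate polyunsaturated fatty acids. Transcription of these genes is driven by SREBP1, the product of Srebf1, best studied in liver and adipose tissue, where feeding and insulin raise it and dietary polyunsaturated fat lowers it. The kidney cortex takes most of its energy from the oxidation of fatty acids.

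Of the 9 genes with a probe, 8 were measured in the cortex, and none differed between the groups beyond the error of the test. A gene was tested where 3 or more of the 6 arrays had a probe well above background, which held for 16 of the 18 probes. All 16 were detected on at least 4 arrays, and the filter therefore took none of the 8 genes through 1 group alone. Levels are processed signals on the log2 scale, set against each array's own 75th percentile, so that 0 is the 75th percentile and a difference of 1 is a 2-fold change. With limma, 0 of the 8 genes had an adjusted p under 0.05, where 0 of the 31637 genes tested, 0% of them, passed. At an unadjusted limma p under 0.05 the members numbered 0 of 8, against 5.49% of all genes tested, 1.63% higher and 3.86% lower. That is 1738 of 31637 genes. The differences of the 8 genes, tricresyl phosphate minus corn oil, had a median of -0.04 on the log2 scale, and the median over all genes tested was -0.04. Of the 8 differences 6 were below 0, where 59.2% of all genes had a difference below 0.

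**Figure D1:**
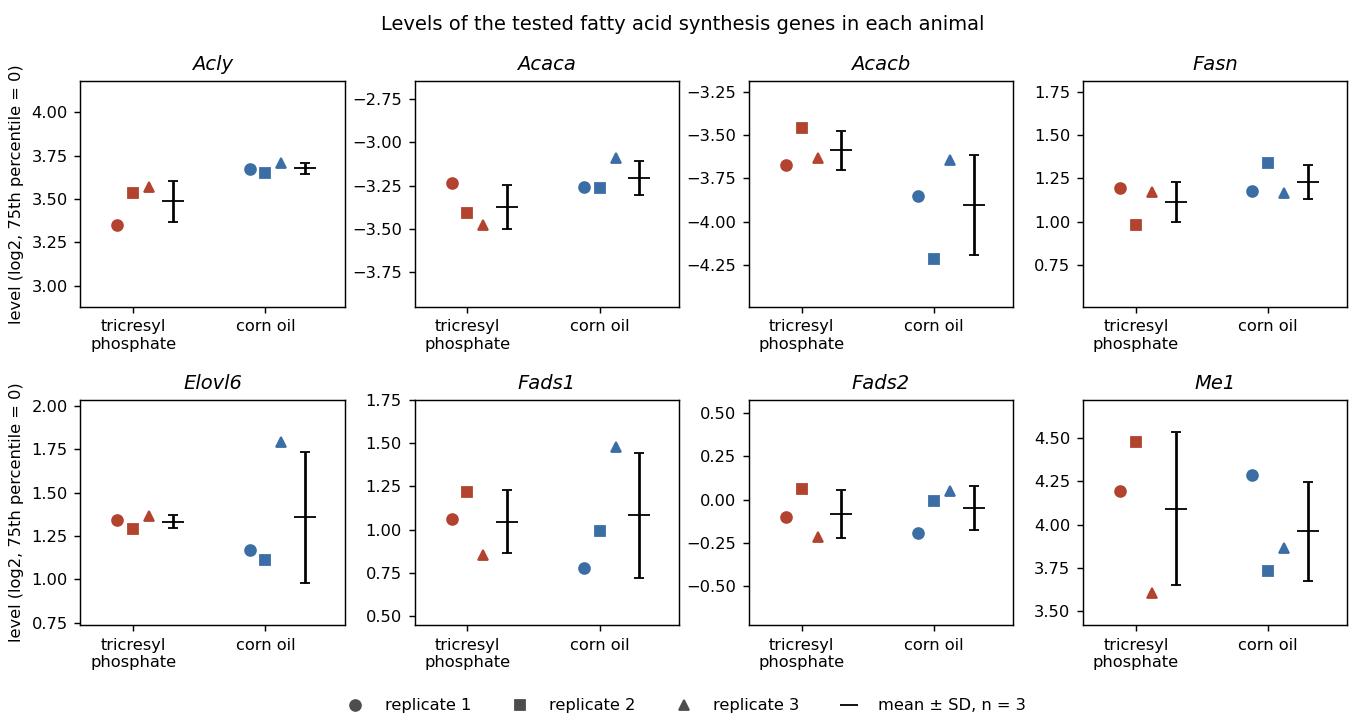
Levels of the 8 tested genes, on the log2 scale with the 75th percentile of the array at 0, in 3 tricresyl phosphate animals (red) and 3 corn oil animals (blue); bars are the mean ± SD, and every panel spans the same height. Only in the panel of Acly do the groups not overlap, and the spread of corn oil animals in Elovl6 and Fads1 comes with corn oil replicate 3.

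The promoters of 3 members are shown, that of Acly because its groups did not overlap, that of Acacb because its difference was the largest of the 8, and that of Me1 because it varied most between animals. They are RefSeq sequences of the build GRCr8, 5′ to 3′ on the strand of the gene, from 250 bases before the annotated start to 50 after it. Capitals mark CCAAT, the element bound by NF-Y, and GGGCGG, the element bound by Sp1, on either strand. Both factors are known partners of SREBP1 at lipogenic promoters.
Acly, chr10:85963582-85963881, minus strand: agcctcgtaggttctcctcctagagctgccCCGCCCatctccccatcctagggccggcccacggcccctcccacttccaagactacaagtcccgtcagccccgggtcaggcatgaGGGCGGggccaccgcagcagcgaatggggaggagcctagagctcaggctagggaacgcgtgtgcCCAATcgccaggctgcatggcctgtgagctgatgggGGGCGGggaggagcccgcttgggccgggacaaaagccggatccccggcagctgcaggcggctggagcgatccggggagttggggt
Acacb, chr12:48138165-48138464, minus strand: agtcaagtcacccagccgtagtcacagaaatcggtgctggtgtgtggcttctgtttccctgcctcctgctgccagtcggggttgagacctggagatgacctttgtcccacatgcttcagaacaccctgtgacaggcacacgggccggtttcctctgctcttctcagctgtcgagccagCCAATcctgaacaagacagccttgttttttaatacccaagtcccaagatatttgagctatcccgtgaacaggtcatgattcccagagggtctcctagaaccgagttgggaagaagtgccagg
Me1, chr8:96540195-96540494, minus strand: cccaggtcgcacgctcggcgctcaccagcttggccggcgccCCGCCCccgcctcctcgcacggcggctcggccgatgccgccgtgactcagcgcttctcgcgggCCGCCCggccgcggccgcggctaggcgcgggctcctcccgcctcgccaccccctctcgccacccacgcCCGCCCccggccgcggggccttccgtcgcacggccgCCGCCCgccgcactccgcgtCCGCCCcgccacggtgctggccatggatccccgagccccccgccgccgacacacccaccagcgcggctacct
The Acly window held 1 CCAAT, which began 71 bases before the start, and 3 GGGCGG. The Acacb window held 1 CCAAT, 72 bases before the start, and 0 GGGCGG, and the Me1 window held 0 CCAAT and 5 GGGCGG. Guanine and cytosine made up 69.0% of the Acly window, 53.7% of the Acacb window and 81.7% of the Me1 window. A promoter was found for 7 of the 10 genes, 8 windows in all because Srebf1 has 2. CCAAT lay in 5 of these 8 windows, against 37.5% of all 33469 promoters, and GGGCGG in 6 of 8, against 33.1%. The sterol regulatory element in the form TCACNCCAC was in 0 of the 8 windows, against 1.12% of all promoters, and the E-box CACGTG was in 0 of 8, against 6.42%. These matches describe letters in the window only.

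Acly, ATP citrate lyase, makes the cytosolic acetyl-CoA from which fatty acids and sterols are built. Its level was 3.35, 3.54 and 3.57 in tricresyl phosphate replicates 1 to 3, against 3.67, 3.65 and 3.71 in corn oil replicates 1 to 3. All 3 tricresyl phosphate animals lay below all 3 corn oil animals, with the lowest value in tricresyl phosphate replicate 1. The difference was -0.19 ± 0.09 (SE), 0.876-fold, with a 95% interval from -0.42 to 0.04 and an adjusted limma p of 0.811. Its other probe read 3.30, 3.42 and 3.58 with tricresyl phosphate and 3.71, 3.46 and 3.66 with corn oil, a difference of -0.17 ± 0.12 (SE), and on it the groups overlapped. Without tricresyl phosphate replicate 1 the Acly difference was -0.12, and with normexp and quantile normalization it was -0.10. Acly was the only one of the 8 genes whose groups did not overlap, and a lower tricresyl phosphate group without overlap occurred in 7.95% of all genes tested.

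Acetyl-CoA carboxylase makes malonyl-CoA, in the cytosol for synthesis (Acaca) and at the mitochondrion, where malonyl-CoA restrains fatty acid import through CPT1 (Acacb). Acaca was at -3.23, -3.41 and -3.48 in tricresyl phosphate animals, against -3.26, -3.26 and -3.09 in corn oil animals. Tricresyl phosphate replicate 1 lay above corn oil replicates 1 and 2, so the groups overlapped. The difference was -0.17 ± 0.11 (SE), 0.890-fold, with a 95% interval from -0.42 to 0.09 and an adjusted limma p of 0.811, and the second probe gave -0.16 ± 0.15 (SE).

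Acacb was at -3.67, -3.46 and -3.63 in tricresyl phosphate animals, against -3.85, -4.22 and -3.65 in corn oil animals. The groups overlapped through corn oil replicate 3, and corn oil replicate 2 was the lowest animal. The difference of 0.32 ± 0.16 (SE), 1.25-fold, was opposite in sign to that of Acaca, with a 95% interval from -0.08 to 0.71 and an adjusted limma p of 0.811. The second Acacb probe gave 0.25 ± 0.23 (SE). It cleared the background in 2 of 3 animals of each group. Without corn oil replicate 2 the Acacb difference was 0.16, and without corn oil replicate 3 it was 0.45. The probe that represents Acacb was dim, with processed signals of 61.7 to 101.7 over local backgrounds of 37 to 48. With normexp and quantile normalization its difference was 0.22.

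Fasn, the multifunctional fatty acid synthase, was at 1.19, 0.98 and 1.17 in tricresyl phosphate animals, against 1.18, 1.34 and 1.17 in corn oil animals. The lowest animal was tricresyl phosphate replicate 2 and the highest was corn oil replicate 2, and the other 4 animals lay close together, so the groups overlapped. The difference was -0.11 ± 0.10 (SE), 0.924-fold, with a 95% interval from -0.36 to 0.13 and an adjusted limma p of 0.837. The second Fasn probe gave -0.09 ± 0.11 (SE). Without tricresyl phosphate replicate 2 the Fasn difference was -0.048, and without corn oil replicate 2 it was -0.059.

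Me1, the cytosolic malic enzyme that yields NADPH, was the most variable of the 8 genes. It was at 4.20, 4.47 and 3.61 in tricresyl phosphate animals, against 4.28, 3.73 and 3.86 in corn oil animals. Both groups held high and low animals, and the highest and the lowest value were both in the tricresyl phosphate group. The range over the 6 animals was 0.87 on the log2 scale, wider than that of 79.6% of all genes tested. The difference was 0.13 ± 0.26 (SE), 1.10-fold, with a 95% interval from -0.49 to 0.76 and an adjusted limma p of 0.924. The 3 Me1 probes gave differences from 0.12 to 0.15, and on each of them the lowest animals were tricresyl phosphate replicate 3 and corn oil replicate 2. These 2 animals also had the highest mean level of the 13 tested hepatocyte markers of 14 listed, -0.06 in tricresyl phosphate replicate 3 and 0.21 in corn oil replicate 2, where the other 4 animals lay between -2.02 and -0.97. Alb, Ttr, Serpina1, Fgg, Hp, Apoa1 and Ahsg were highest in these 2 animals. Apoc3 was lowest in them, at 2.74 and 2.78, where the other 4 lay between 2.99 and 3.13. Tf, Fga, Fgb, Apob and Cyp2c11 showed neither pattern. Of these markers 8 were higher and 5 lower in mean with tricresyl phosphate, their summed level ranged from 4.34 to 4.76 in tricresyl phosphate animals and from 4.27 to 5.12 in corn oil animals, with Tf and Apoc3 leading the sum, and Cps1 was above background on no array. Tf, transferrin, named after its values were seen, differed by -0.60 ± 0.19 (SE) without overlap. Its unadjusted limma p was 0.020 and its adjusted limma p 0.811. Of the 13 markers it was the only 1 without overlap, where 7.95% of all genes tested were lower without overlap. At an unadjusted limma p under 0.05, 3.86% of all genes tested were lower. The part of these markers in the level of Me1 was not tested. Without both animals the Me1 difference was 0.26 with an adjusted limma p of 0.958, and without tricresyl phosphate replicate 2 it was -0.06, of the opposite sign.

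**Figure D2:**
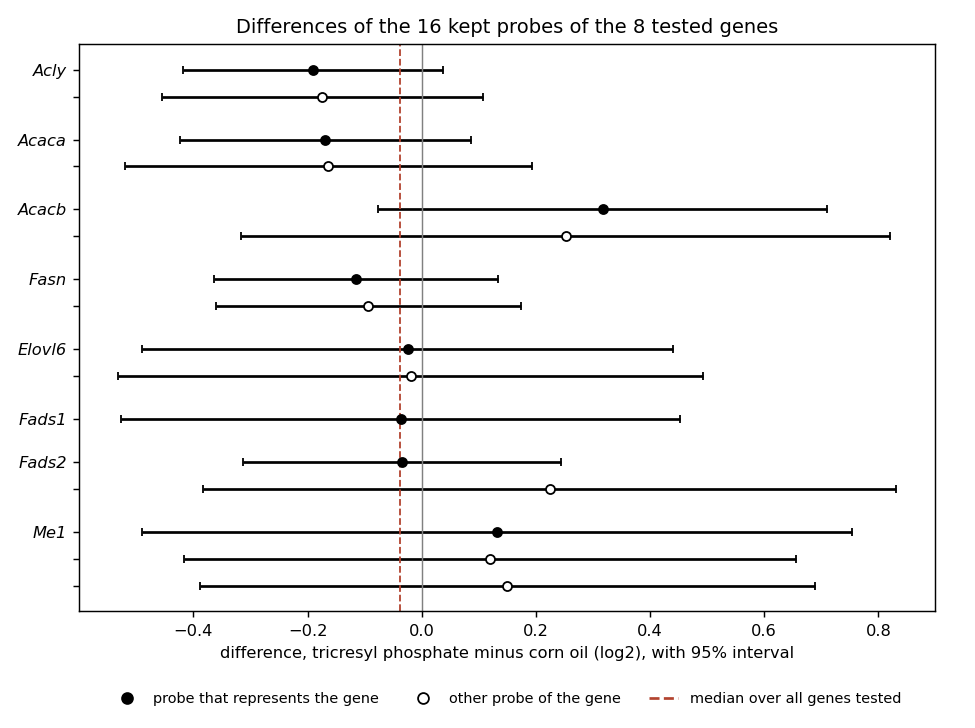
Difference between tricresyl phosphate and corn oil on the log2 scale, with its 95% interval, for each of the 16 kept probes; filled points are the probes that represent their gene, and the dashed line is the median over all genes tested. Every interval spans 0, and probes of 1 gene lie close together except those of Fads2.

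Elovl6, which lengthens palmitate to stearate, was at 1.34, 1.29 and 1.37 in tricresyl phosphate animals, against 1.17, 1.11 and 1.79 in corn oil animals. The tricresyl phosphate animals lay close together, between a single high corn oil animal, replicate 3, and the other two. The difference was -0.02 ± 0.19 (SE), 0.983-fold, with a 95% interval from -0.49 to 0.44 and an adjusted limma p of 0.983. The second probe read highest in the same animal, at -1.84, where the other 5 animals lay between -2.51 and -2.15. Without corn oil replicate 3 the Elovl6 difference was 0.19, of the opposite sign.

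Fads1, a desaturase of polyunsaturated fatty acid synthesis, was at 1.06, 1.22 and 0.86 in tricresyl phosphate animals, against 0.78, 0.99 and 1.48 in corn oil animals. Corn oil replicate 3 was again the highest animal, and the tricresyl phosphate values lay inside the corn oil range. The difference was -0.04 ± 0.20 (SE), 0.975-fold, with a 95% interval from -0.53 to 0.45 and an adjusted limma p of 0.975, and without corn oil replicate 3 it was 0.16.

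Fads2, the desaturase that opens the same route, was at -0.10, 0.06 and -0.21 in tricresyl phosphate animals, against -0.19, -0.005 and 0.05 in corn oil animals. The groups covered the same range, and the range over all animals, 0.28, was wider than that of 20.6% of all genes tested. The difference was -0.03 ± 0.11 (SE), 0.977-fold, with a 95% interval from -0.31 to 0.25 and an adjusted limma p of 0.958. Fads2 was the only gene of the 7 with several kept probes in which these disagreed in sign. Its second probe was at -0.67, -1.49 and -1.51 in tricresyl phosphate animals, against -1.63, -1.45 and -1.27 in corn oil animals, so that tricresyl phosphate replicate 1 alone stood above the rest, and the difference was 0.22 ± 0.25 (SE).

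Scd, the stearoyl-CoA desaturase of liver and adipose tissue, was not well above background on any of the 6 arrays with either of its probes, and was not tested. The brighter probe had processed signals of 24.5, 17.6 and 15.6 in tricresyl phosphate animals, against 22.9, 15.3 and 20.8 in corn oil animals, over local backgrounds of 31.0 to 42.0. Both groups spanned the same low range. Its paralogue Scd2, the form known from brain and other tissues of rodents, was detected on all 6 arrays. Scd2 was at 0.87, 1.16 and 1.11 in tricresyl phosphate animals, against 1.10, 1.03 and 1.00 in corn oil animals, a difference of -0.001 ± 0.11 (SE) with a 95% interval from -0.26 to 0.26. On this probe the groups overlapped, and one of 2 dimmer Scd2 probes gave -0.06 ± 0.10 (SE). The other dimmer probe was at -3.35, -3.17 and -3.11 in tricresyl phosphate animals, against -3.43, -3.83 and -3.46 in corn oil animals. On it the groups did not overlap, and its difference of 0.37 ± 0.14 (SE) had an unadjusted limma p of 0.039. Of all genes tested, 3.85% were higher without overlap, and 1.63% were higher at an unadjusted limma p under 0.05. Of the 43099 kept probes 0 had an adjusted limma p under 0.05.

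**Figure D3:**
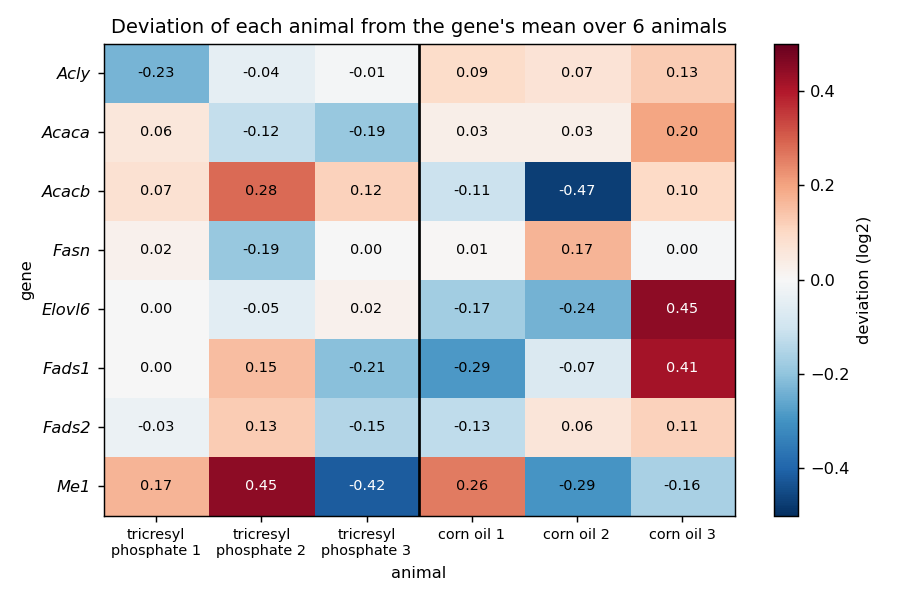
Deviation of each animal, in columns, from the mean of a gene over the 6 animals, in rows, on the log2 scale; tricresyl phosphate animals are left of the line and corn oil animals right of it. Corn oil replicate 3 is the highest animal for Acly, Acaca, Elovl6 and Fads1, and Me1 varies as much within each group as between them.

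No single animal was the highest or the lowest for all 8 genes. Corn oil replicate 3 was the highest animal for 4 of the 8 genes, Acly, Acaca, Elovl6 and Fads1, and the lowest for 0, and it lay above the mean of the gene for 6 of 8. Tricresyl phosphate replicate 2 was the highest for Acacb, Fads2 and Me1 and the lowest for Fasn, while tricresyl phosphate replicate 3 was the lowest for Acaca, Fads2 and Me1. The median deviation of the 8 genes from their own means was 0.12 in corn oil replicate 3 and between -0.08 and 0.04 in the other 5 animals. Without corn oil replicate 3 the median difference of the 8 genes was 0.05, and without corn oil replicate 1 it was -0.13. Slide 1, with a scan of its own, carried corn oil replicate 1 and no other animal, and slide 2 carried the other 5, so a fit with the slide as a block, which equals leaving that animal out, gave the same -0.13.

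Genes around the pathway gave no call either. Of 85 further genes in 5 lists 73 were tested, and 36 were higher and 37 lower in mean with tricresyl phosphate. With limma 0 of the 73 passed an adjusted p under 0.05, and 0 reached an unadjusted p under 0.05, against 5.49% of all genes tested. Their median difference was -0.0008, beside -0.04 over all genes. Groups did not overlap in 4 of the 73 genes, Erlin1 in the higher direction and Insig1, Mpc1 and Mpc2 in the lower, against 11.8% of all genes tested, 3.85% higher and 7.95% lower.

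Among 19 tested genes listed around SREBP1 and its glucose-responsive counterpart ChREBP, 12 were higher and 7 lower, with a median of 0.02. The list holds genes that control these factors and also targets such as Thrsp. Insig1, a target of SREBP that holds its precursor in the endoplasmic reticulum, was at 2.27, 2.16 and 2.20 in tricresyl phosphate animals, against 2.29, 2.43 and 2.29 in corn oil animals. All 3 tricresyl phosphate animals lay below the corn oil animals on this probe, and differed by -0.12 ± 0.09 (SE), for which the adjusted limma p was 0.814, while the 3 other probes of Insig1 gave 0.08, 0.15 and 0.21. Erlin1, an endoplasmic reticulum protein that restrains SREBP, had the smallest p of the list and differed by 0.15 ± 0.09 (SE), where a second probe gave -0.12. Scap, the escort of SREBP, differed by 0.10 ± 0.09 (SE). Mlxipl, which encodes ChREBP, differed by 0.09 ± 0.15 (SE) and Nr1h3, the liver X receptor that activates Srebf1, by -0.04 ± 0.09 (SE). Thrsp, a lipogenic target of both factors, was at -3.32, -3.40 and -3.98 in tricresyl phosphate animals, against -3.70, -3.53 and -3.51 in corn oil animals, and differed by 0.01 ± 0.19 (SE).

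Of 11 genes that supply citrate, acetyl-CoA and NADPH 2 were higher and 9 lower, with a median of -0.08. Mpc1, a subunit of the mitochondrial pyruvate carrier, was at 7.15, 7.11 and 7.07 in tricresyl phosphate animals, against 7.36, 7.19 and 7.21 in corn oil animals. Its groups did not overlap, the adjusted limma p of its difference, -0.14 ± 0.09 (SE), was 0.811, and under quantile normalization it was -0.02. A second Mpc1 probe gave -0.19 ± 0.10 (SE), and on it the groups did not overlap either. Acss2, which makes acetyl-CoA from acetate, differed by -0.08 ± 0.18 (SE), where a second probe gave 0.05. Of 16 partners in elongation and desaturation 9 were higher and 7 lower, with a median of 0.01. Fads3, a paralogue of Fads1 and Fads2, differed by -0.15 ± 0.10 (SE) and Elovl5, an elongase of polyunsaturated fatty acids, by 0.03 ± 0.10 (SE).

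Of 10 genes of mitochondrial fatty acid synthesis and of carboxylase control 4 were higher and 6 lower, with a median of -0.02. Prkaa1, a catalytic subunit of the kinase AMPK, which phosphorylates and inhibits acetyl-CoA carboxylase, differed by 0.32 ± 0.17 (SE), and its groups overlapped. Of 17 genes of acyl-CoA activation and triglyceride synthesis 9 were higher and 8 lower, with a median of 0.0005. Gpat3, a glycerol phosphate acyltransferase, differed by 0.19 ± 0.11 (SE), and its other probe by 0.22 ± 0.10 (SE). None of these passed, and the adjusted limma p was 0.811 for both Prkaa1 and Gpat3.

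**Figure D4:**
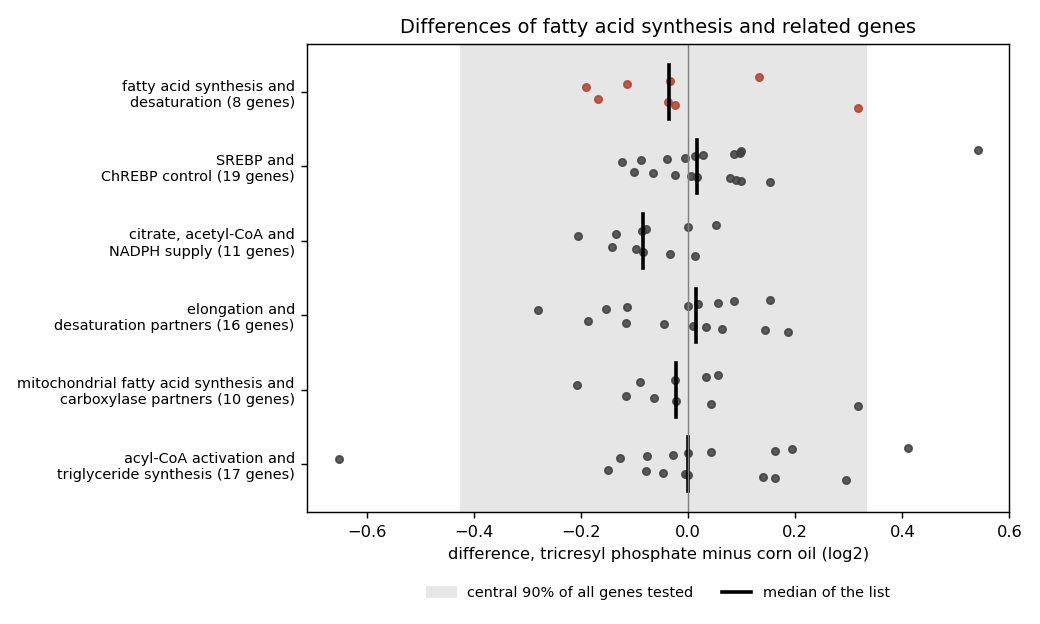
Difference between tricresyl phosphate and corn oil on the log2 scale for each tested gene of the fatty acid synthesis list (red) and of 5 lists of related genes (grey), with the median of each list as a black bar and the central 90% of all genes tested, from -0.42 to 0.33, shaded. All 8 fatty acid synthesis genes lie inside the shaded range.

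Markers of the cell types of the cortex were detected on the arrays, but not all of those listed. The distal tubule marker Pvalb was above background on no array. The proximal tubule genes Slc34a1, a phosphate transporter, and Lrp2, the endocytic receptor megalin, Umod of the thick ascending limb and Aqp2 of the collecting duct were detected on all arrays. Slc34a1 differed by -0.09 ± 0.12, Lrp2 by -0.13 ± 0.09, Umod by -0.12 ± 0.20 and Aqp2 by -0.04 ± 0.18 (SE). Under quantile normalization Lrp2 differed by -0.012 and Umod by -0.0089, and Slc34a1 by 0.046 and Aqp2 by 0.080, of the opposite sign. Of the tested markers, 5 of 14 were higher with tricresyl phosphate in the proximal tubule list, 5 of 7 in the thick ascending limb and distal tubule list, 5 of 9 in the collecting duct list, 3 of 6 in the podocyte list, 4 of 7 in the endothelial list and 4 of 9 in the leukocyte list, and 0 passed an adjusted limma p under 0.05. At an unadjusted limma p under 0.05 these 6 lists held 3 genes, named after their values were seen, against 5.49% of all genes tested. They were the endothelial genes Flt1, a receptor of vascular endothelial growth factor, which differed by 0.56 ± 0.15 (SE), and Tie1, a receptor kinase, by 0.25 ± 0.08 (SE), and the complement gene C1qa of the leukocyte list, by -0.28 ± 0.10 (SE). The groups did not overlap in any of the 3. The part of these cell types in the members' values was not tested. Since adipose tissue around the kidney is rich in lipogenic enzymes, 14 adipocyte markers were examined: 12 had a probe, 10 were tested, Lep was above background on no array, and Plin1 had no mapped probe. Of the 10, 6 were higher and 4 lower in mean with tricresyl phosphate, the lower ones including, as seen from their values, Cidec with -0.51 ± 0.33, Pparg with -0.24 ± 0.19 and Cidea with -0.19 ± 0.14 (SE). The summed level of the 10 ranged from 5.41 to 5.58 in tricresyl phosphate animals and from 5.37 to 5.58 in corn oil animals. Gpd1, a glycerol phosphate dehydrogenase, made up most of this sum, with 5.29 to 5.47 in tricresyl phosphate animals and 5.26 to 5.47 in corn oil animals, so the sum says little of the other 9. Adipoq, the adipokine adiponectin, was at 0.16, -0.17 and 0.02 in tricresyl phosphate animals, against 0.29, -0.45 and -0.43 in corn oil animals, with overlapping groups. Fabp4, a fatty acid binding protein of adipocytes and capillary endothelium, was at -3.43, -2.14 and -3.41 in tricresyl phosphate animals, against -4.38, -4.34 and -5.46 in corn oil animals. Its groups did not overlap, where 3.85% of all genes were higher without overlap, and the adjusted limma p of its difference, 1.73 ± 0.46 (SE), was 0.811, and the unadjusted limma p was 0.0090. With normexp and quantile normalization the Fabp4 difference was 0.932. The hepatocyte marker Alb, albumin, was at -0.11, -0.15 and 2.21 in tricresyl phosphate animals, against -2.47, 2.62 and -1.61 in corn oil animals. Median processed signals per array ranged from 102.6 to 133.2, over median local backgrounds of 33.0 to 41.0.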

How the data were processed

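Renal cortex RNA of 3 tricresyl phosphate and 3 corn oil rats was labelled with Cy3 and hybridised to 1 Agilent array per animal. Per the file headers, the authors quantified the arrays with Agilent Feature Extraction 10.7.1.1 (10.7 per the submitters' processing notes). The deposited intensity values are linear: a processed signal, which is background-subtracted and spatially detrended, and the median brightness of spot and local background, with flags for saturation, outliers and spots well above background. A further intensity, in the authors' value table, equals the processed signal over 1 divisor for each array among the brighter probes, with a coefficient of variation of that ratio from 0.0087% to 0.0092%. Its scale is linear and uncentred, its column medians are 0.1094 to 0.1152, and no label or header says what scaled it. On each array the divisor lay close to the 75th percentile of the processed signal, as with 938.0 beside 936.5 in corn oil replicate 1. The authors' value table is thus nearly the scaling used here, not an independent normalization.

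Control spots (1439 per array) were left out, 0 spots were saturated, and 77 outlier spots were set missing. Accessions were matched, without version, to the RefSeq gene table of GRCr8: 28206 probes had 1 symbol, 0 several and 33331 none. The headers name the build rn4, so no gene coordinates from GRCr8 are printed other than those of the RefSeq promoters. The 75th percentile of each array was subtracted on the log2 scale. A gene was represented by its kept probe with the highest mean, 31637 genes or unnamed transcripts from 43099 kept probes. Groups were compared by a two-sided test in limma 3.58.1 (R 4.3.3), adjusted by Benjamini and Hochberg's method, once over genes and once over all kept probes, where 0 probes passed. The script was tested on simulated data. The number of arrays limits the precision. The members, the lists and their markers were chosen with earlier results of these data known. All members were named, with the gene of smallest p per list and 8 further pathway genes and 8 cell type markers fixed by name. Alternatives are in the closing section.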

Additional observations from a re-analysis of the deposited data

How the results depend on the processing

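The 3 arrays per group limit what can be seen, and dim probes such as those of Scd gave no value. Over 17 alternatives and 8 members, 126 of 136 differences kept their sign, 10 turned, and the lowest adjusted limma p was 0.693. The count of kept signs says little, since several alternatives left every member's difference exactly as it was. These were the 2 other filters on dim probes, outlier spots kept, the intensity trend with robust variance, and the replicate block. The slide as a block repeats the fit without corn oil replicate 1, and the authors' value table gave nearly the main differences. The cause of the changes was not tested. Leaving out the 2 animals with the highest hepatocyte markers was chosen after seeing the data. The count of genes at an adjusted limma p under 0.05, and that of probes, was 2 with normexp and quantile normalization and 2 with an intensity trend and robust variance. With that trend, 1 member, Acly, had an unadjusted limma p under 0.05. With the slide as a block the members' median was -0.13. With normexp and quantile normalization the difference was 0.030 for Elovl6, 0.0062 for Nr1h3, 0.018 for Scd2, -0.053 for Elovl5, 0.012 for Slc34a1, 0.015 for Umod and 0.090 for Aqp2. With quantile normalization alone it was 0.040 for Nr1h3, -0.0035 for Thrsp, 0.017 for Scd2, 0.046 for Slc34a1 and 0.080 for Aqp2. With the mean over the probes of a gene it was 0.095 for Fads2, 0.079 for Insig1, 0.10 for Scd2, -0.017 for Elovl5 and 0.022 for Aqp2. With the slide as a block it was -0.021 for Mlxipl, -0.047 for Thrsp, 0.024 for Scd2 and 0.0092 for Aqp2. Without the 2 animals it was 0.012 for Fads1 and 0.054 for Fads2. Without a turn of sign, it also moved by over 1.5 times, and the moves given here are not all of them. It became 0.015 for Erlin1 with the mean over probes. With normexp and quantile normalization it became 0.081 for Gpat3 and 0.23 for Me1. Leaving out the 2 animals gave 0.127 for Prkaa1, 0.18 for Acacb and 0.041 for Scap. The slide as a block gave -0.19 for Fads1, -0.12 for Elovl6, -0.11 for Fads2 and 0.29 for Me1.

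Leaving out 1 animal at a time gave 0 to 1 genes and 0 to 1 probes at an adjusted limma p under 0.05, 0 to 1 members and 0 to 3 wider pathway genes at an unadjusted one, and a members' median from -0.13 to 0.049. Differences then ranged from -0.15 to 0.19 for Elovl6, -0.19 to 0.16 for Fads1, -0.11 to 0.031 for Fads2, -0.059 to 0.37 for Me1, -0.22 to 0.037 for Acss2, -0.021 to 0.21 for Mlxipl, -0.058 to 0.087 for Scd2, -0.0060 to 0.094 for Elovl5, -0.11 to 0.22 for Thrsp, -0.19 to 0.013 for Slc34a1, -0.25 to 0.059 for Umod and -0.18 to 0.10 for Aqp2, and kept their sign from -0.23 to -0.12 for Acly and -0.15 to -0.048 for Fasn.

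Whether the replicate numbers shared by the groups pair the animals cannot be decided from 3 animals per group. Deviations of same-numbered animals from their group means correlated at 0.086, -0.051 and -0.044 over genes, and not every animal correlated best with its own number. With the replicate number as a block, 0 genes had an adjusted limma p under 0.05, 1927 had an unadjusted one, against 1738 without the block, and 1 wider pathway gene, Prkaa1, had an unadjusted one.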

Other observations

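Some related genes stood apart in single animals, and these were chosen after their values were seen. Mbtps2, a protease that releases SREBP from the membrane, was at -2.70, -4.37 and -4.38 in tricresyl phosphate animals, against -4.34, -4.26 and -4.48 in corn oil animals. Mogat2, an acyltransferase of triglyceride synthesis, was at -0.47, -1.90 and -2.15 in tricresyl phosphate animals, against -2.14, -1.98 and -1.63 in corn oil animals. In both genes tricresyl phosphate replicate 1 was the high animal, as it was on the second probe of Fads2. Elovl2, an elongase of polyunsaturated fatty acids, was at 1.46, 1.13 and 1.32 in tricresyl phosphate animals, against 1.47, 1.46 and 0.54 in corn oil animals. It was low in corn oil replicate 3, the animal in which Elovl6 and Fads1 were high. Idh1, a cytosolic source of NADPH, was at 5.21, 5.39 and 6.22 in tricresyl phosphate animals, against 5.30, 5.38 and 5.98 in corn oil animals, with 1 high animal in each group. The adjusted limma p of these 4 genes lay between 0.830 and 0.978.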
